A study of Mus musculus with 6 samples.

Results

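Sulfate and sialic acid give the sugar chains of the cell surface and the extracellular matrix their negative charge. The genes described here add or remove those groups. They were chosen by symbol alone from the gene list of the matrices, as the sulfotransferases Ndst1 to Ndst4, Hs2st1, Hs3st, Hs6st and Chst with a digit, the sulfatases Sulf1, Sulf2 and Arsa, Arsb, Arsg, Arsi, Arsj and Arsk, and the sialyltransferases St3gal, St6gal, St6galnac and St8sia. The rule took 58 of 32285 genes, with 57 distinct symbols because St6galnac2 stands on 2 rows. No measured value entered the rule, although earlier results of these data were known when the members were chosen.

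Heparan sulfate is first N-sulfated by the Ndst enzymes and then O-sulfated by Hs2st1, the Hs6st and the Hs3st enzymes, and the pattern of sulfates decides which growth factors, guidance cues and adhesion proteins the chain binds. Chondroitin sulfate, the main chain of the perineuronal matrix, is sulfated by Chst enzymes, and the Sulf enzymes remove 6-O-sulfates outside the cell while arylsulfatases work mostly in lysosomes. Sialyltransferases end the chains of glycoproteins and gangliosides, and the St8sia enzymes build chains of sialic acid, among them the polysialic acid of the neural cell adhesion molecule.

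Transcripts were measured in single nuclei from frozen hippocampi of mice aged 18 to 20 months. There were 3 libraries from mice that breathed 2% sevoflurane, an inhaled anaesthetic, in 60% oxygen for 6 h at 1 L/min, and 3 libraries from mice given 60% oxygen with no anaesthetic, at an equal flow and duration. In each group replicates 1 and 2 are labelled male and replicate 3 female. The study asks, by its title, about the metabolite S-methyl-5-thioadenosine in blood and slow recovery of cognition after an operation. No label gives the number of animals in a library, and p-values therefore reflect the spread between these libraries, which may be technical.

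After filtering, 51874 nuclei remained, between 8916 and 9708 in a sevoflurane library and between 7734 and 8813 in an oxygen library. Deposited totals were 61398346 to 72636984 UMIs (unique molecular identifiers, counted transcript molecules) in sevoflurane libraries and 56334621 to 70077201 UMIs in oxygen libraries. Clusters were named from marker genes, giving 18 classes, which are written as X-like, and 14 of them had at least 20 nuclei in every library and were tested. The choroid plexus epithelial-like class had 0 nuclei in each sevoflurane library and 60, 16 and 99 in the oxygen libraries, and summed RNA of its 7 markers was lower in sevoflurane with no overlap in 13 of the 14 tested classes. In the sums over all nuclei it was 79.5 to 89.8 CPM (counts scaled by library total) in sevoflurane and 181 to 735 CPM in oxygen. Unnamed clusters 19 and 36 held 561 of 600 and 144 of 149 nuclei from sevoflurane libraries. The sex-linked genes went against the label in 3 libraries, of which 1 was labelled male and 2 female. The female-specific Xist had 1363 CPM in sevoflurane replicate 1 and 0.501 to 1.22 CPM in every other library. The sum of 4 Y-linked genes was 0.350 CPM in sevoflurane replicate 1 and 342 to 373 CPM in every other library. By these genes only sevoflurane replicate 1 had a female pattern, so the groups were not balanced for sex as labelled. Pairs of libraries shared 15 to 33 barcodes, at most 0.362% of the smaller library.

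Before the values, 3 promoters are shown for the members whose change recurred in several classes or was largest in 1 class: Arsg and St6gal1, called in 3 and 4 classes, and St8sia4. Each runs from 250 bases before to 50 bases after a transcript start, 5′ to 3′ on the gene's strand, as given by RefSeq on GRCm38.p6. Capitals mark GGGCGG on either strand, the core of the GC box. Arsg at chr11:109485642-109485941 on the plus strand is the first of 2 entries, lies inside the gene as annotated by GENCODE, whose 5′ end is at position 109473374, and holds no match. St6gal1 at chr16:23224490-23224789 on the plus strand is the first of 3 entries and holds 1 match on the other strand. St8sia4 at chr1:95667545-95667844 on the minus strand is its single entry and also holds 1.
Arsg: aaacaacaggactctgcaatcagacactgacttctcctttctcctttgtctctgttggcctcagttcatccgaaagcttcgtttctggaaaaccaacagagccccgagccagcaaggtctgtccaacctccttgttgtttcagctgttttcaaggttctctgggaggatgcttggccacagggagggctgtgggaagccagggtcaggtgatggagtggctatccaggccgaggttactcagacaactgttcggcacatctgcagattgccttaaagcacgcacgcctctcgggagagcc
St6gal1: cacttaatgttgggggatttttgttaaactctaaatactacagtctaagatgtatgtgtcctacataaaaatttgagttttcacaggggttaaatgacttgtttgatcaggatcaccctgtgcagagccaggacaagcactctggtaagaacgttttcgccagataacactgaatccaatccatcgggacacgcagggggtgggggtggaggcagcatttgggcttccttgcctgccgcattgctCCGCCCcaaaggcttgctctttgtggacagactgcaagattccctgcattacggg
St8sia4: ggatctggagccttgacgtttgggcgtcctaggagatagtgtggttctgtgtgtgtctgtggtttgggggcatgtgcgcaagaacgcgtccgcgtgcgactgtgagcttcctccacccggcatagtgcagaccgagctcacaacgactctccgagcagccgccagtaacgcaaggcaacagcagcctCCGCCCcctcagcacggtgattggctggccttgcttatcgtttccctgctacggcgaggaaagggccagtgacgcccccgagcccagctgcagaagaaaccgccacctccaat
Of the 57 symbols, 44 were matched to 52 promoters. The GGGCGG motif lay in 35 of these 52 (67.3%) and in 35.7% of all 32851 promoters of the table, and in 8 of the 17 promoters of members called below. TATAAA lay in 2 of the 52 (13.6% of all promoters), and CACGTG in 4 of the 52 (7.15% of all).

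The classes differed widely in which of these enzymes they transcribed. Of the 58 members, 50 reached 20 CPM in at least 1 of the 18 classes, 12 did so in all 18, and 10 stood over 3 times higher in 1 class than in the next. The other 8, namely Chst4, Chst12, Chst13, Chst14, Hs3st3b1, Hs3st6, St6galnac1 and the second row of St6galnac2, stayed under 20 CPM in every class. Counts of these 3′ libraries carry no length correction, so levels below are compared across classes within a gene and not between genes. Levels are means ± SD over libraries, n = 6 unless another n is given. Rankings cover the 18 named classes only. The 16 unnamed clusters are left out of them, and a class that pools several clusters is given as 1 value.

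**Figure D1:**
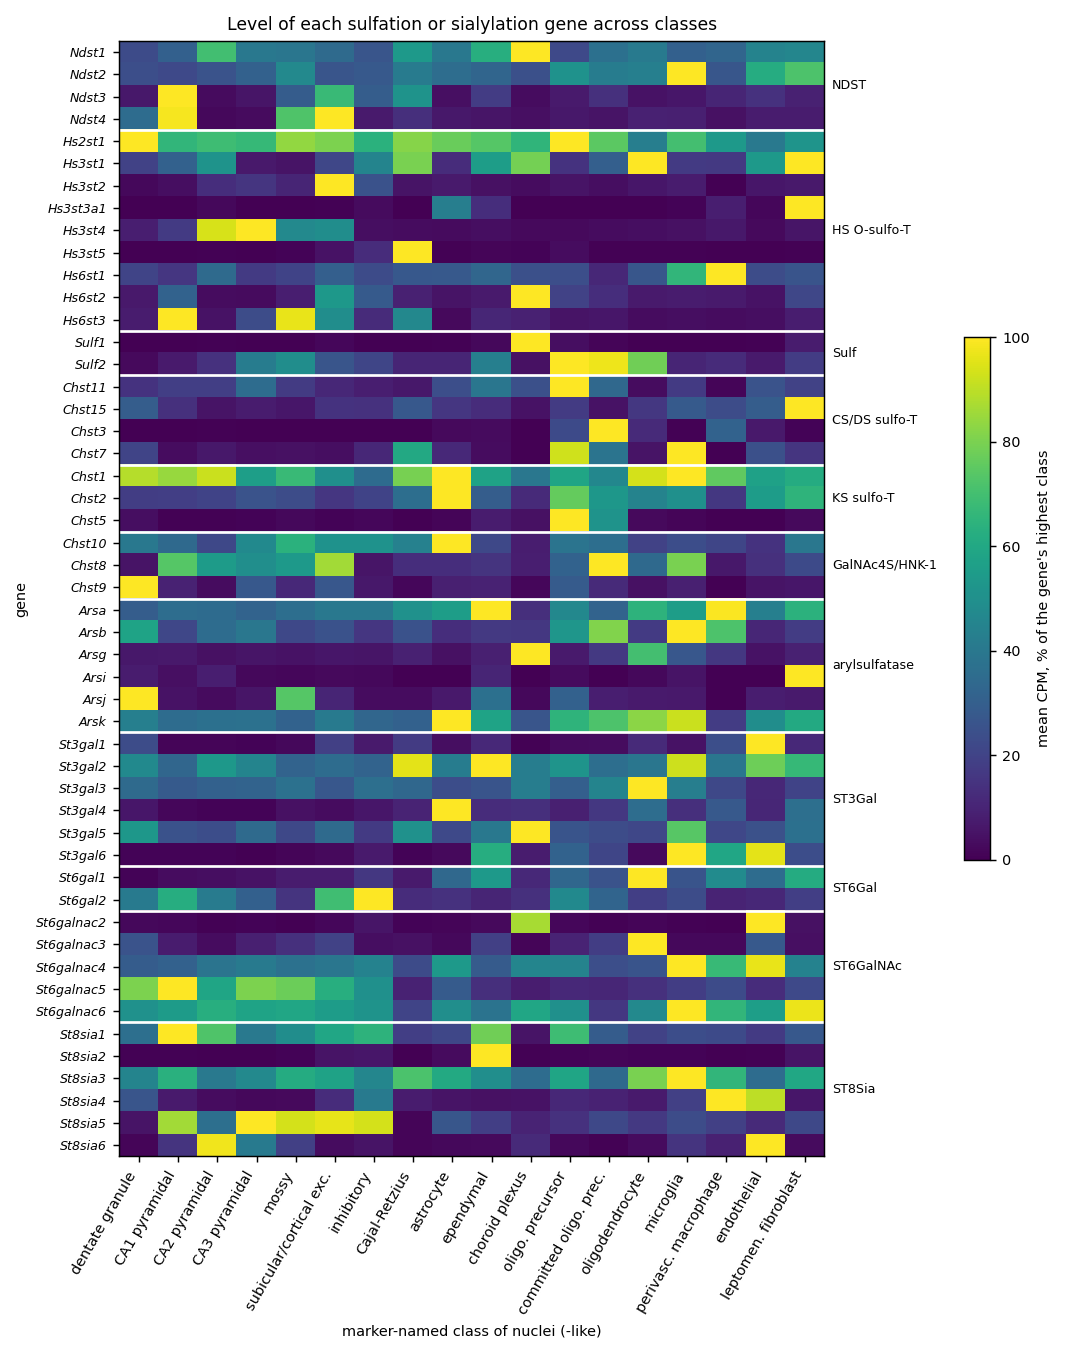
Level of the members (rows, grouped by role) in the 18 marker-named classes (columns), as the mean CPM over libraries in percent of that gene's highest class, for the 50 members that reached 20 CPM in a class. Rows such as Sulf1 (choroid plexus) and St8sia2 (ependymal) have 1 bright column, and rows such as Hs2st1 and Chst1 are bright across neurons and glia.

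Among the N-deacetylase/N-sulfotransferases, which start heparan sulfate modification, Ndst3 and Ndst4 had both their highest and their lowest class among neurons. Ndst3 averaged 450.4 ± 84.7 CPM in CA1 pyramidal-like nuclei, above the 305 ± 50.6 CPM of subicular or cortical excitatory-like nuclei in 6 of 6 libraries, and its lowest class, CA2 pyramidal-like, had 12.7 CPM. Unnamed cluster 41, outside the classes, had 1037 ± 214 CPM of Ndst3 (n = 4). Ndst4 stood at 322 ± 95.2 CPM in subicular or cortical excitatory-like and 318 ± 57.2 CPM in CA1 pyramidal-like nuclei, which did not differ beyond their spread (higher in 3 of 6 libraries), and at 7.29 CPM in CA2 pyramidal-like nuclei. Neighbouring pyramidal classes thus lay at opposite ends of the order for both genes. Ndst1 and Ndst2, the broadly used forms, were spread more evenly, with Ndst1 at 20 CPM or more in all 18 classes and highest in choroid plexus epithelial-like nuclei (133 ± 15.5 CPM, n = 3).

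The O-sulfotransferases divided the neurons further. Hs6st3, a 6-O-sulfotransferase, had 4273 ± 278 CPM in CA1 pyramidal-like and 4134 ± 736 CPM in mossy-like nuclei, which could not be ordered (3 of 6 libraries), against 115 CPM in astrocyte-like nuclei. The 3-O-sulfotransferases Hs3st4, Hs3st2 and Hs3st5 led in different neuronal classes, and Hs3st1, Hs3st3a1 and Hs3st3b1 averaged highest in vascular leptomeningeal fibroblast-like nuclei. By class average, Hs3st4 led in CA3 pyramidal-like (2247 ± 269 CPM) and CA2 pyramidal-like nuclei (2110.3 ± 174 CPM), ahead of the next class at 1100.5 CPM. Single clusters pooled in the subicular or cortical excitatory-like class stood above these averages. Cluster 28 had 3521 ± 192 CPM of Hs3st4 and cluster 37 had 3345 ± 463 CPM (n = 5). Cluster 24 of the same class had only 176 ± 35.8 CPM. Hs3st2 was 3.96 times higher in subicular or cortical excitatory-like nuclei (86.9 ± 10.6 CPM) than in inhibitory-like nuclei (22.0 ± 5.32 CPM), in 6 of 6 libraries. Hs3st5 was 7.89 times higher in Cajal-Retzius-like nuclei (1057 ± 306 CPM) than in inhibitory-like nuclei (134 ± 22.4 CPM), again in 6 of 6. Over the named classes Hs2st1, the single 2-O-sulfotransferase, ranged from 73.2 CPM in endothelial-like to 182 CPM in dentate granule-like nuclei, a ratio of 2.48. Unnamed cluster 41, outside these classes, had 439 ± 73.5 CPM of Hs2st1 (n = 4).

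The chondroitin and dermatan sulfotransferases were led by glial and meningeal classes. Chst11, a chondroitin 4-O-sulfotransferase, averaged 688 ± 148 CPM in oligodendrocyte precursor-like nuclei, 2.54 times the 271 ± 40.2 CPM of ependymal-like nuclei. Chst15, which adds a second sulfate to 4-sulfated chondroitin, was 3.37 times higher in vascular leptomeningeal fibroblast-like nuclei (72.0 ± 22.8 CPM) than in the next class. Chst3, a chondroitin 6-O-sulfotransferase, had 90.5 ± 13.8 CPM in committed oligodendrocyte precursor-like nuclei, 3.17 times the next class, perivascular macrophage-like, whose 4 libraries had an SD of 57.1 CPM and which was below it in 3 of 4 libraries. Of the enzymes that sulfate N-acetylglucosamine, Chst1 was shared by microglia-like (109.5 ± 23.1 CPM) and astrocyte-like nuclei (109.4 ± 13.5 CPM), and Chst2 led in astrocyte-like nuclei (93.6 ± 19.4 CPM).

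Chst9, which sulfates terminal N-acetylgalactosamine of N-glycans, had 264 ± 119.6 CPM in dentate granule-like nuclei and 75.2 ± 17.6 CPM in oligodendrocyte precursor-like nuclei, 3.51 times less and lower in 6 of 6 libraries. Its large SD in dentate granule-like nuclei includes the difference between treatments described below. Chst8, which makes the same sulfate, ran the other way and had its lowest level, 5.02 CPM, in dentate granule-like nuclei. Chst10, the sulfotransferase of the HNK-1 epitope, led in astrocyte-like nuclei (50.5 ± 9.45 CPM).

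Of the sulfatases, Sulf1 was 12.8 times higher in choroid plexus epithelial-like nuclei (2122 ± 633 CPM, n = 3 oxygen libraries) than in vascular leptomeningeal fibroblast-like nuclei (166 ± 41.4 CPM). Sulf2 was shared by oligodendrocyte precursor-like (273 ± 34.4 CPM) and committed oligodendrocyte precursor-like nuclei (266 ± 65.6 CPM). Arsg, a lysosomal sulfatase of heparan sulfate, had 181 ± 63.8 CPM in choroid plexus epithelial-like nuclei (n = 3) and 126 ± 15.9 CPM in oligodendrocyte-like nuclei. Arsb, which removes 4-sulfate from dermatan and chondroitin sulfate, averaged highest in microglia-like nuclei but spread there from 171 to 940.2 CPM over the libraries. Arsj led in dentate granule-like nuclei (84.1 ± 7.52 CPM), and Arsi was 9.80 times higher in vascular leptomeningeal fibroblast-like nuclei (21.2 ± 15.02 CPM) than in the next class.

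Among sialyltransferases that add sialic acid to galactose, St3gal1, an O-glycan enzyme, was 4.16 times higher in endothelial-like nuclei (151 ± 28.3 CPM) than in the next class. Cluster 37 alone had 125 ± 41.8 CPM of St3gal1 (n = 5), within a subicular or cortical excitatory-like class that averaged 28.7 CPM. St3gal6 was shared by microglia-like (472 ± 40.4 CPM) and endothelial-like nuclei (452 ± 109 CPM), St3gal4 led in astrocyte-like nuclei (254 ± 63.1 CPM), and St3gal3 in oligodendrocyte-like nuclei (332 ± 46.6 CPM). St3gal5, the synthase of ganglioside GM3, reached 20 CPM in every class. St6gal1, which adds alpha-2,6-linked sialic acid to N-glycans, had 409.6 ± 59.3 CPM in oligodendrocyte-like nuclei and its lowest level, 3.44 CPM, in dentate granule-like nuclei, while its paralogue St6gal2 led in inhibitory-like nuclei (60.0 ± 6.81 CPM).

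The ganglioside-directed and polysialic enzymes were also divided among classes. St6galnac3 was 3.59 times higher in oligodendrocyte-like nuclei (2416 ± 186 CPM) than in endothelial-like nuclei (674 ± 125 CPM). St6galnac5 led in CA1 pyramidal-like nuclei (860.2 ± 152 CPM), as did St8sia1, the GD3 synthase (102 ± 2.84 CPM). Of the polysialyltransferases, St8sia2 was 16.7 times higher in ependymal-like nuclei (121 ± 33.5 CPM) than in inhibitory-like nuclei. St8sia4 had 190.2 ± 145 CPM in perivascular macrophage-like (n = 4) and 171 ± 128 CPM in endothelial-like nuclei, and 78.5 CPM in inhibitory-like nuclei. St8sia6 stood at 115 ± 50.8 CPM in endothelial-like and 113 ± 32.8 CPM in CA2 pyramidal-like nuclei, which could not be ordered.

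Counts were then compared between sevoflurane and oxygen, once summed over all nuclei and once within each class, with edgeR's quasi-likelihood test over all genes and a call at a Benjamini-Hochberg adjusted p under 0.05. Within classes, 25 of the 520 pairs of a tested member and a class were called, 6 higher and 19 lower in sevoflurane, from 16 distinct members in 9 classes. That is 4.81% of pairs, beside 1.68% of all 152835 gene and class pairs, of which 1.16% were lower and 0.52% higher. A change in 1 gene can count in several classes, and the pairs share the same 6 libraries. Because the members were chosen with earlier results of these data known, the shares are descriptive and do not test for an excess. In 11 of the 14 classes the median log2 fold change of the members lay below that of all genes. The 4 members too sparse to be tested anywhere were Chst4, Chst13, Hs3st6 and the second row of St6galnac2. The groups' libraries did not overlap for any member call of this edgeR test. The same values gave the calls, so this is no separate support, and it was not set beside a share over all genes. Fold changes are log2 of sevoflurane over oxygen ± SE, and CPM values are given for replicates 1, 2 and 3.

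**Figure D2:**
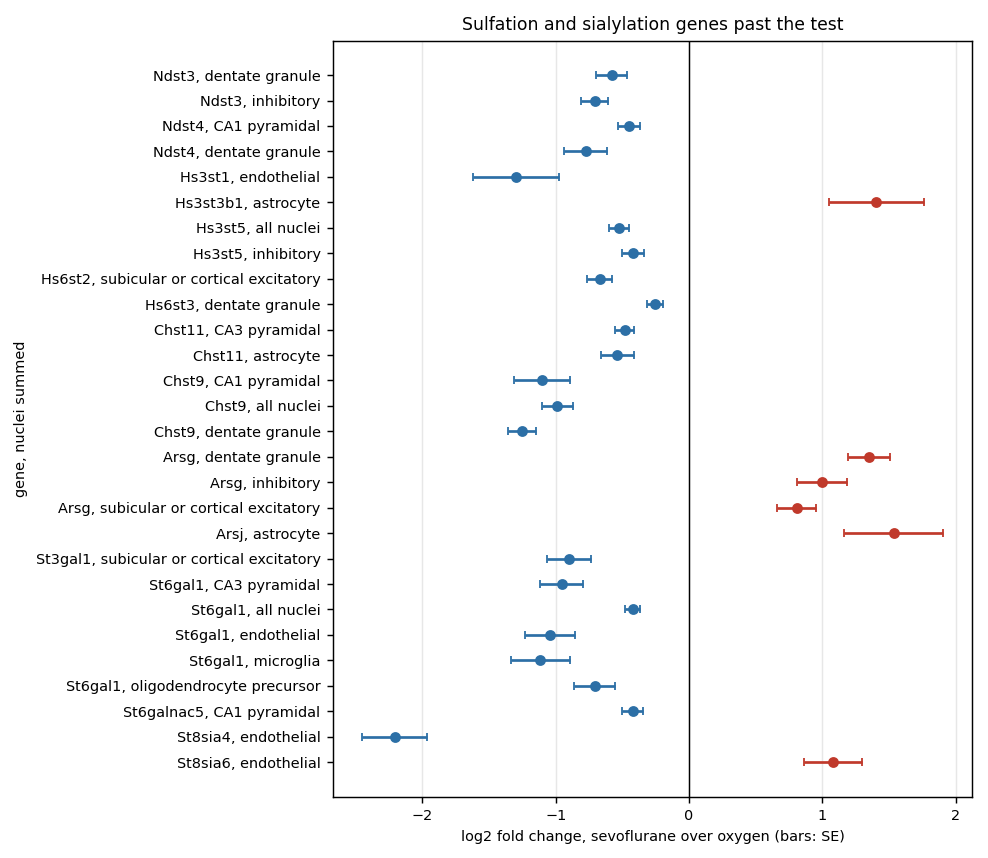
Fold changes of the called members in each class and in all nuclei, as log2 of sevoflurane over oxygen with bars of ± 1 SE, drawn right of 0 where sevoflurane was higher. St8sia4 in endothelial-like nuclei lies farthest to the left at −2.21, and the 3 calls of Arsg lie right of 0.

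In the sums over all nuclei, 3 of 54 tested members were called, all lower, where 2.01% of all genes were called. Chst9 had 73.2, 63.5 and 56.0 CPM in sevoflurane and 112, 142 and 128 CPM in oxygen (−0.99 ± 0.12, adjusted p = 0.0207). St6gal1 had 45.3, 45.3 and 48.5 CPM in sevoflurane and 64.5, 61.3 and 61.0 CPM in oxygen (−0.42 ± 0.06, adjusted p = 0.0222). Hs3st5 had 22.2, 22.4 and 25.5 CPM in sevoflurane and 32.6, 33.8 and 34.3 CPM in oxygen (−0.52 ± 0.07, adjusted p = 0.0264). Each lost its call when any 1 of the oxygen libraries or sevoflurane replicate 2 was left out. In sums over all nuclei, fewer nuclei of a type and less RNA per nucleus cannot be told apart. With the classes given equal shares, Chst9 stood at −0.59 and Hs3st5 at −0.37, and neither was called, while St6gal1 stood at −0.39 and kept its call (adjusted p = 0.0203).

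Of the 4 N-deacetylase/N-sulfotransferases, Ndst3 fell in inhibitory-like and dentate granule-like nuclei and Ndst4 in dentate granule-like and CA1 pyramidal-like nuclei. These are 4 calls among 48 pairs, all lower. In inhibitory-like nuclei, where 3 of 48 members and 2.01% of all genes were called, Ndst3 had 108, 83.4 and 112 CPM in sevoflurane and 156, 174 and 166 CPM in oxygen (−0.71 ± 0.10, adjusted p = 0.00209). In dentate granule-like nuclei, with 5 of 49 members and 4.62% of all genes called, Ndst3 had 25.8, 21.8 and 22.7 CPM in sevoflurane and 32.3, 40.6 and 31.8 CPM in oxygen (−0.58 ± 0.12, adjusted p = 0.0234). Over all classes its fold change was negative in 12 of 13. The call in inhibitory-like nuclei held in all 12 alternative fits.

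Ndst4, which has weak deacetylase activity, was lower in dentate granule-like nuclei at 102, 75.1 and 74.9 CPM in sevoflurane and 169, 139 and 124 CPM in oxygen (−0.78 ± 0.16, adjusted p = 0.0426). In CA1 pyramidal-like nuclei, with 3 of 45 members and 2.18% of all genes called, it had 289, 262 and 254 CPM in sevoflurane and 393, 362 and 347 CPM in oxygen (−0.45 ± 0.08, adjusted p = 0.0139). In subicular or cortical excitatory-like nuclei, the other class in which Ndst4 is high, it had 318, 483 and 213 CPM in sevoflurane and 282, 370.2 and 263 CPM in oxygen, where the groups overlapped (0.14 ± 0.32, adjusted p = 0.892). Ndst1 and Ndst2 were not called in any class.

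**Figure D3:**
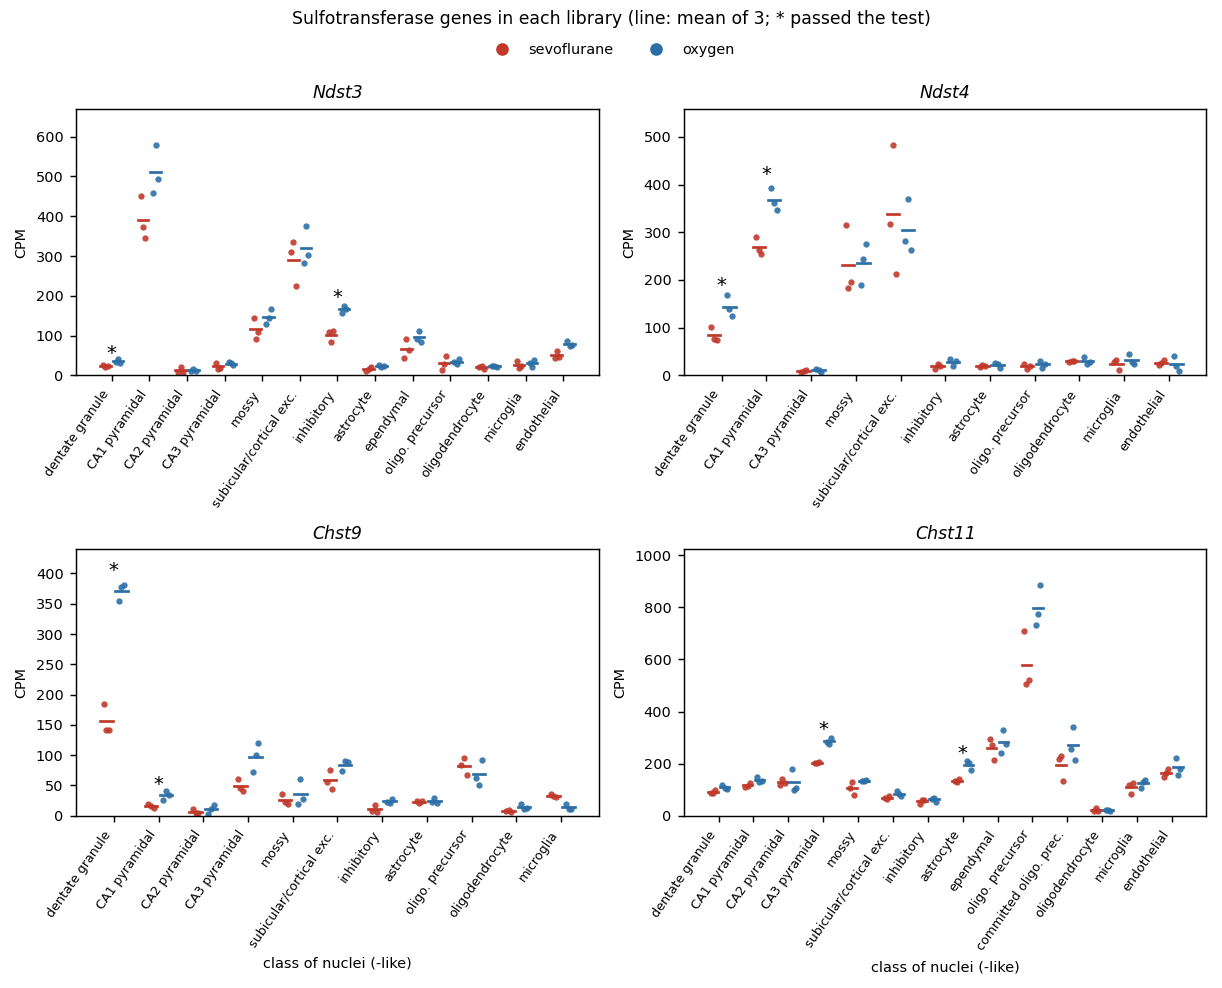
CPM (y axis, from 0) of Ndst3, Ndst4, Chst9 and Chst11 in each library, by class in which the gene was tested, with the 3 sevoflurane libraries left of the 3 oxygen libraries, a line at each mean and * where the test called the gene. At each * the points of the groups are apart, as for Chst9 in dentate granule-like nuclei, at 141 to 184 CPM in sevoflurane and 355 to 381 CPM in oxygen.

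The heparan sulfate O-sulfotransferases gave 1 higher and 4 lower calls in 94 pairs. In subicular or cortical excitatory-like nuclei, with 3 of 46 members and 1.25% of all genes called, Hs6st2 had 118, 109 and 135 CPM in sevoflurane and 186, 187 and 206 CPM in oxygen (−0.67 ± 0.09, adjusted p = 0.0102). Hs6st3 in dentate granule-like nuclei had 288, 301 and 305 CPM in sevoflurane and 346, 359.9 and 359.9 CPM in oxygen (−0.25 ± 0.06, adjusted p = 0.0411). This small difference went to −0.00 in the fit that takes out a trend with gene span. Hs3st5 in inhibitory-like nuclei had 106, 111 and 126 CPM in sevoflurane and 149.6, 156 and 154 CPM in oxygen (−0.42 ± 0.08, adjusted p = 0.0147), and its fold change was negative in all 8 classes in which it was tested.

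The remaining O-sulfotransferase calls rested on few molecules. Hs3st1, which makes the 3-O-sulfate of the antithrombin site, was lower in endothelial-like nuclei, where 4 of 29 members and 2.84% of all genes were called. It had 7.23, 19.9 and 25.4 CPM in sevoflurane and 44.1, 53.1 and 53.6 CPM in oxygen (−1.30 ± 0.32, adjusted p = 0.0308), from 124 UMIs in all and 2 in the lowest library, and DESeq2 did not call it. In astrocyte-like nuclei, with 3 of 45 members and 2.27% of all genes called, Hs3st3b1 was higher at 8.56, 11.3 and 11.5 CPM in sevoflurane and 6.19, 2.79 and 3.20 CPM in oxygen (1.40 ± 0.35, adjusted p = 0.0457, 92 UMIs). Hs2st1, tested in 14 classes, was called in none of them.

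Chst11 gave both calls of the chondroitin and dermatan sulfotransferases, which made up 37 pairs. In CA3 pyramidal-like nuclei, with 2 of 42 members and 1.39% of all genes called, it had 201, 204 and 207 CPM in sevoflurane and 284, 275 and 297 CPM in oxygen (−0.48 ± 0.07, adjusted p = 0.00627), and the call held in all 12 alternative fits. In astrocyte-like nuclei it had 132, 129 and 141 CPM in sevoflurane and 209, 201 and 176 CPM in oxygen (−0.54 ± 0.12, adjusted p = 0.0263). In oligodendrocyte precursor-like nuclei, where the gene is highest, it had 708, 507 and 521 CPM in sevoflurane and 732, 776 and 887 CPM in oxygen, with no overlap and a similar fold change (−0.46 ± 0.13), but did not pass the test (adjusted p = 0.0888). The enzymes that sulfate N-acetylglucosamine had 0 calls in 28 pairs by edgeR, with 3 pairs at an unadjusted p under 0.05 and 0 calls by DESeq2. Within them Chst1 had a positive fold change in 13 of 13 classes, from 0.03 to 0.60, and Chst2 in 12 of 13.

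Chst9 in dentate granule-like nuclei was the member with the smallest p outside endothelial-like nuclei. It had 184, 141 and 142 CPM in sevoflurane and 355, 378 and 381 CPM in oxygen (−1.25 ± 0.10, adjusted p = 0.000703), and all 14 alternative fits kept the call. Both dentate granule-like clusters showed it. Cluster 1 had 254, 181 and 171 CPM in sevoflurane and 391, 449 and 444 CPM in oxygen (−1.21 ± 0.15), and cluster 2 had 95.2, 103 and 79.4 CPM in sevoflurane and 204, 173 and 188 CPM in oxygen (−1.14 ± 0.10). The second call, in CA1 pyramidal-like nuclei, was at a far lower level, with 19.9, 15.5 and 11.9 CPM in sevoflurane and 25.6, 41.3 and 34.2 CPM in oxygen (−1.10 ± 0.21, adjusted p = 0.0324). Chst9 was among the 10 leading genes of cluster 1, although the members were left out of the genes used for clustering. The summed markers of dentate granule-like nuclei moved the same way, at 3145 to 3495 CPM in sevoflurane and 3992 to 4289 CPM in oxygen, and their part in this result was not tested.

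The arylsulfatases gave 4 calls in 50 pairs, all higher, and 3 of them were Arsg. In dentate granule-like nuclei Arsg had 17.3, 13.6 and 18.3 CPM in sevoflurane and 7.44, 6.24 and 5.66 CPM in oxygen (1.35 ± 0.16, adjusted p = 0.00271, 1005 UMIs), and all 14 alternative fits kept the call. In inhibitory-like nuclei it had 13.2, 13.3 and 15.5 CPM in sevoflurane and 6.42, 7.997 and 6.76 CPM in oxygen (0.99 ± 0.19, adjusted p = 0.0110). In subicular or cortical excitatory-like nuclei it had 13.5, 12.4 and 14.7 CPM in sevoflurane and 7.48, 7.47 and 8.37 CPM in oxygen (0.81 ± 0.15, adjusted p = 0.0296). The 3 classes thus had like levels in each group, all far under those of oligodendrocyte-like nuclei, where the fold change was −0.11 ± 0.13 and not called.

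Arsg (chr11:109473374-109573330 on mm10, plus strand) overlaps Slc16a6, a monocarboxylate transporter family gene on the minus strand, over 225 bp at their 5′ ends. Whether counting used strand is not given in the sources used here, so reads from the shared bases cannot be assigned to one of them. Slc16a6 was itself higher in dentate granule-like nuclei, at 12.8, 11.05 and 9.27 CPM in sevoflurane and 7.44, 7.24 and 6.24 CPM in oxygen (0.66 ± 0.16, adjusted p = 0.0421). In inhibitory-like nuclei its fold change was 0.91 (adjusted p = 0.104) and in subicular or cortical excitatory-like nuclei 0.37 (adjusted p = 0.197). Arsj in astrocyte-like nuclei, at 9.41, 6.94 and 9.61 CPM in sevoflurane and 2.38, 3.58 and 2.67 CPM in oxygen (1.53 ± 0.37, adjusted p = 0.0367), rested on 71 UMIs and lost its call whichever library was left out.

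**Figure D4:**
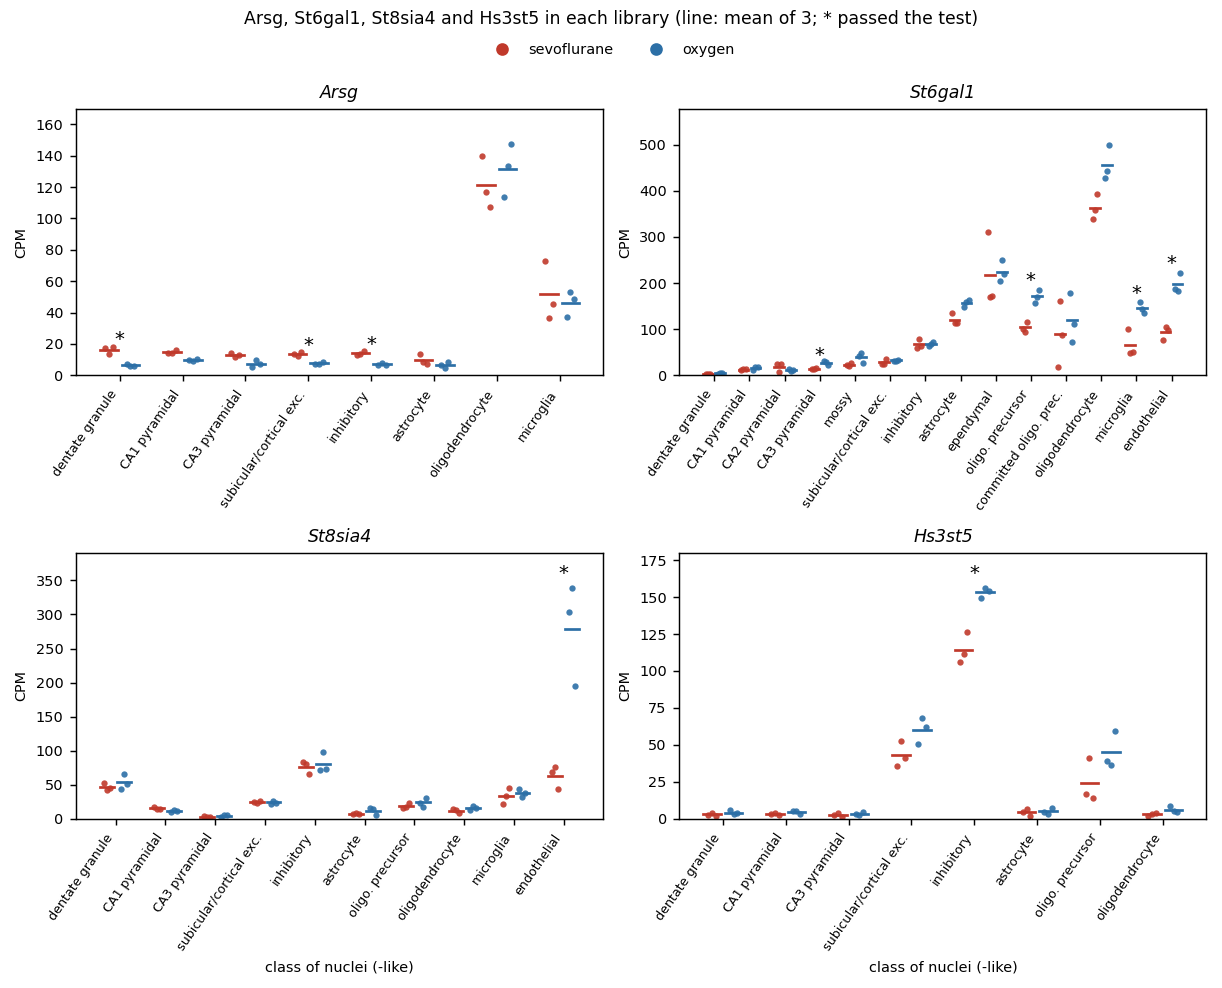
CPM (y axis, from 0) of Arsg, St6gal1, St8sia4 and Hs3st5 in each library, by class in which the gene was tested, with sevoflurane libraries left of oxygen libraries, a line at each mean and * where the test called the gene. Each * of Arsg has sevoflurane above oxygen, and each * of the other panels has sevoflurane below oxygen.

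The 2 endosulfatases had 0 calls in 23 pairs by edgeR, with 5 pairs at an unadjusted p under 0.05 and 0 calls by DESeq2. Sulf1 over all nuclei had 11.8, 10.2 and 14.7 CPM in sevoflurane and 25.7, 19.2 and 36.2 CPM in oxygen (−1.14, adjusted p = 0.0684). Without the choroid plexus epithelial-like nuclei, in which Sulf1 is highest, this became −0.49 (adjusted p = 0.185), with 12.04, 10.6 and 15.2 CPM in sevoflurane and 14.5, 14.8 and 20.5 CPM in oxygen on unadjusted library sizes.

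St6gal1 was the member called in most classes, lower in 4 of the 14 and negative in 13. In CA3 pyramidal-like nuclei it had 13.1, 13.3 and 16.1 CPM in sevoflurane and 30.6, 28.0 and 23.1 CPM in oxygen (−0.95 ± 0.16, adjusted p = 0.0112), and all 11 alternative fits kept the call. In microglia-like nuclei, with 1 of 34 members and 0.573% of all genes called, it had 101, 48.5 and 50.6 CPM in sevoflurane and 159, 144 and 136 CPM in oxygen (−1.11 ± 0.22, adjusted p = 0.0133). Sevoflurane replicate 1 was the highest of its group there and still under every oxygen library.

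In oligodendrocyte precursor-like nuclei, with 1 of 38 members and 0.869% of all genes called, St6gal1 had 101, 94.8 and 116 CPM in sevoflurane and 158, 169.7 and 185 CPM in oxygen (−0.71 ± 0.15, adjusted p = 0.0233). In endothelial-like nuclei it had 75.9, 105 and 99.2 CPM in sevoflurane and 187, 183 and 222 CPM in oxygen (−1.04 ± 0.19, adjusted p = 0.00344). The gene is highest in oligodendrocyte-like nuclei, whose summed markers overlapped between the groups in all 4 of these classes, for example 830.1 to 1298 CPM in sevoflurane and 953 to 1180.4 CPM in oxygen in microglia-like nuclei. The part of oligodendrocyte RNA in these falls was not tested. St6gal2 was not called in any class.

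St3gal1 and St6galnac5 were also called lower, each in 1 class, but their falls were not confined to it. St3gal1 in subicular or cortical excitatory-like nuclei had 19.8, 17.9 and 22.0 CPM in sevoflurane and 28.8, 38.1 and 45.5 CPM in oxygen (−0.90 ± 0.16, adjusted p = 0.0310). Its level differed between the 7 clusters pooled there, with 125 ± 41.8 CPM in cluster 37 (n = 5, without sevoflurane replicate 2). The part of shifts between clusters in the calls of this class was not tested. In dentate granule-like nuclei St3gal1 stood at −0.87 ± 0.19 with no overlap (adjusted p = 0.0522). Taken alone, cluster 1 (adjusted p = 0.0397) and cluster 2 (adjusted p = 0.0499) of that class passed the same test. In oligodendrocyte-like nuclei St3gal1 went the other way (0.96 ± 0.28, no overlap, adjusted p = 0.179). St6galnac5, the synthase of ganglioside GD1alpha, in CA1 pyramidal-like nuclei had 780.3, 732 and 692 CPM in sevoflurane and 952, 1089 and 916 CPM in oxygen (−0.42 ± 0.08, adjusted p = 0.0181). The fold change of St6galnac5 was negative in 12 of 14 classes. The span of St6galnac5 overlaps Pigk, on the other strand, over 163328 bp. Pigk had 417, 403 and 343 CPM in sevoflurane and 474, 622 and 505 CPM in oxygen in the same nuclei (−0.46 ± 0.11, adjusted p = 0.0535), and without known strand use the reads of the pair cannot be told apart.

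Endothelial-like nuclei held the largest fall of any call and a rise within the same family. St8sia4, a polysialyltransferase, had 68.7, 75.9 and 44.1 CPM in sevoflurane and 304, 338 and 195 CPM in oxygen (−2.21 ± 0.24, adjusted p = 9.39e-05, 602 UMIs). St8sia6, which adds sialic acid mainly to O-glycans, had 127, 152 and 191 CPM in sevoflurane and 97.7, 64.9 and 61.3 CPM in oxygen (1.08 ± 0.22, adjusted p = 0.0104). Every fit that left out 1 library kept the call of St8sia4. These nuclei numbered 57, 139 and 194 in sevoflurane and 170, 97 and 120 in oxygen. Under a stricter filter on nuclei, which left 13 to 60 of them per library, St8sia4 stood at −1.34 (adjusted p = 0.245) and was not called, nor were St8sia6 and St6gal1. In these nuclei the summed markers of vascular leptomeningeal fibroblasts were 72.3 to 108 CPM in sevoflurane and 134 to 230 CPM in oxygen, those of choroid plexus 14.5 to 26.5 CPM in sevoflurane and 92.5 to 825 CPM in oxygen, and those of pericytes, microglia and perivascular macrophages overlapped. Their part in the result was not tested.

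In 5 classes no member was called. In oligodendrocyte-like nuclei 44 members were tested (0.934% of all genes called) and 10 had an unadjusted p under 0.05, in ependymal-like nuclei 25 (0.445%) and 2, in CA2 pyramidal-like nuclei 33 (0.479%) and 7, in mossy-like nuclei 28 (0 of 7294 genes called, 454 at an unadjusted p under 0.05) and 2, and in committed oligodendrocyte precursor-like nuclei 14 (0.164%) and 4. DESeq2 called 1 member in CA2 pyramidal-like nuclei and 0 in the other 4 of these classes.

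Whether the response of a class differed from that of the remaining nuclei was tested on the difference of log2 CPM within each library, by limma, and 12 of the 520 pairs were called (2.31%, beside 0.496% of all pairs). The response of Arsg was 1.07 ± 0.15 higher in dentate granule-like nuclei than in the rest (adjusted p = 0.00746) and 0.72 lower in oligodendrocyte-like nuclei. Oligodendrocyte-like nuclei, where Arsg is high and its fold change was −0.11, are part of the rest of dentate granule-like nuclei. Of the other neurons, inhibitory-like and subicular or cortical excitatory-like nuclei rose as given above, and the fold change was 0.78 in CA3 pyramidal-like (adjusted p = 0.122) and 0.62 in CA1 pyramidal-like nuclei (adjusted p = 0.0509). The same difference for St8sia4 in endothelial-like nuclei was −2.001 ± 0.25 (adjusted p = 0.00987). The rest had 31.4, 27.6 and 28.8 CPM in sevoflurane and 26.3, 33.6 and 28.7 CPM in oxygen. For Chst9 the difference from the rest was positive in microglia-like (2.11 ± 0.33), oligodendrocyte precursor-like (1.24 ± 0.21) and astrocyte-like nuclei (0.93 ± 0.18). In microglia-like nuclei Chst9 had 36.1, 33.5 and 31.1 CPM in sevoflurane and 18.5, 11.4 and 10.1 CPM in oxygen, the reverse of its order in the rest. Dentate granule-like nuclei are part of that rest.

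Gene span went with the direction of the calls. Of the 19 lower calls, 17 were in members that span 100 kb or more, and of the 6 higher calls 5 were in shorter ones, with Arsg (99957 bp) just under this limit. Among members of 100 kb or more, 17 of 240 pairs were lower (7.08%), beside 4.43% of pairs of all genes of that span. Among shorter members 2 of 280 were lower (0.714%, beside 0.408%) and 5 higher (1.79%, beside 0.485%), and among long ones 1 was higher (0.417%, beside 0.667%). In dentate granule-like nuclei 14.8% of all 2428 long genes were lower and 1.08% of all 13564 short genes. With a trend on span taken out in the fit there were 16 calls, and 10 of the 25 were not among them, namely Ndst3, Ndst4 and Hs6st3 in dentate granule-like, St3gal1 and Hs6st2 in subicular or cortical excitatory-like, Ndst4, St6galnac5 and Chst9 in CA1 pyramidal-like, Hs3st5 in inhibitory-like and St6gal1 in oligodendrocyte precursor-like nuclei. All 10 kept a negative sign. The corrected fold change was −0.87 for St3gal1 (adjusted p = 0.0562) and −0.50 for Hs6st2 (adjusted p = 0.0501). It was −0.95 for Chst9 in CA1 pyramidal-like nuclei and −0.61 for St6gal1 in oligodendrocyte precursor-like nuclei, and for Hs6st3 −0.00.

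**Figure D5:**
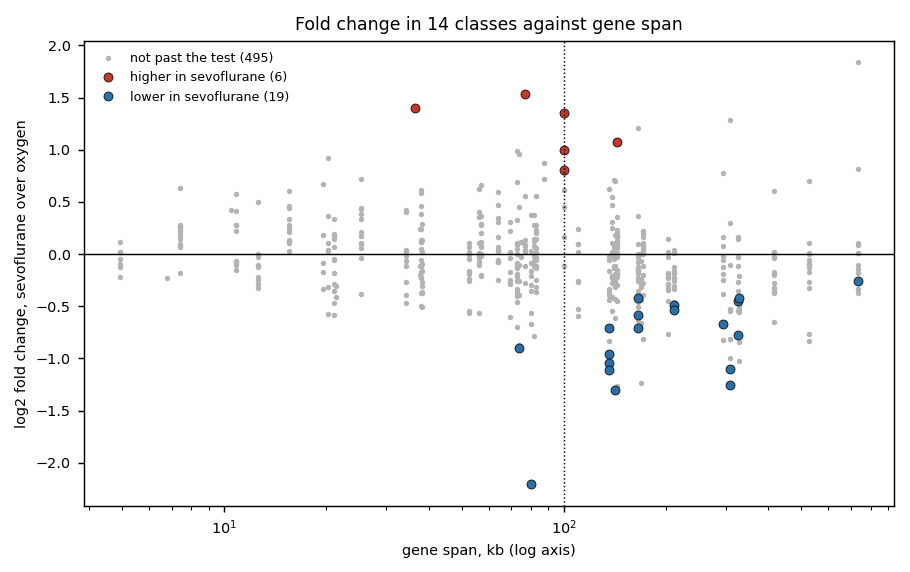
Fold change of members in each class (log2 of sevoflurane over oxygen) against gene span in kb on a log axis, 1 point per member and class, with called pairs coloured by direction and the dotted line at 100 kb. Lower calls gather right of 100 kb (17 of 19), and 5 of the 6 higher calls lie left of it.

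The genes that build and carry these chains were read from 11 lists with 101 genes. Of their 963 pairs with a class, 20 were lower (2.08%, beside 1.16% lower among all pairs) and 0 were higher by edgeR, with 41 higher and 85 lower at an unadjusted p under 0.05 and 0 higher and 34 lower by DESeq2. Of all pairs, 4.43% were lower for genes that span 100 kb or more and 0.408% for shorter genes. The part of gene span in the calls of the lists was not tested. The lists were chosen with earlier results of these data known, so their share is descriptive. Of the 20 lower calls, 18 were chain enzymes and proteoglycan cores and 2 were carriers of polysialic acid. Enzymes of the linker and of heparan sulfate chains had 7 in 139 pairs, those of chondroitin chains 5 in 109, and heparan sulfate proteoglycan cores 5 in 160. Xylt1, which starts the linker, had 163, 171 and 177 CPM over all nuclei in sevoflurane and 251, 261 and 252 CPM in oxygen (−0.58 ± 0.05, adjusted p = 0.0192), and Ext1, a heparan sulfate polymerase, stood at −0.42 ± 0.08 (adjusted p = 0.0431). Chsy3, a chondroitin synthase, had 213, 179.7 and 187 CPM in sevoflurane and 340.1, 359 and 302 CPM in oxygen in dentate granule-like nuclei (−0.79 ± 0.09, adjusted p = 0.00229). Lists of sulfate activation, sialic acid synthesis, sialidases, lectins, glycosphingolipid synthesis and lysosomal degradation had no call.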

How the data were processed

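Single-nucleus RNA was sequenced from 6 hippocampal libraries with droplet-based 3′ chemistry. Per the submitters' processing notes, fastp and Cell Ranger 7.1.0 were used with mm10. The deposited matrices hold raw counts (UMIs per gene and barcode), which the authors had already reduced to selected barcodes; use of strand and of intronic reads was not given in any source used here. The members and gene lists were chosen with earlier results of these data known.

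Of 53824 deposited barcodes, 53287 had at least 500 UMIs, 300 genes and at most 5% mitochondrial UMIs. Scrublet scores above a common threshold of 0.2999 removed 1413 doublets, since the automatic threshold called none in 1 library. Nuclei were clustered with scanpy 1.11.5 and Leiden (igraph 0.11.9, resolution 1) on 3000 variable genes without the members, giving 45 clusters. A cluster was named where at least 3 markers of a list had 10 CPM and stood 2 times above the other nuclei, which named 29 clusters (41061 nuclei) and left 16 unnamed. Names rest on these markers, so shares may differ from the study's own.

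Counts summed per library were compared by the edgeR 4.0.16 quasi-likelihood test (R 4.3.3, TMM, filterByExpr, robust fit, treatment as the only term), with Benjamini-Hochberg adjustment over all genes tested in each set of nuclei and a call under 0.05. DESeq2 1.42.0 was an alternative. Class against rest was tested with limma 3.58.1 on log2 CPM differences (prior count 2). The fits were tested on simulated data. CPM values use normalised library sizes unless stated. Spans and overlaps come from GENCODE M21, to which 32235 of the 32285 genes were matched by ID. Named with values are every called member, the leading members of each role, those over 3 times higher in 1 class than the next, and the called genes of the other lists with the smallest p. The labels state no pairing of libraries, so the main fits used none. Deviations of same-numbered libraries correlated at −0.14 to 0.08 over the sets of nuclei. Those of sevoflurane replicate 2 and oxygen replicate 1 correlated at 0.042 to 0.15. With 3 libraries per group, these values cannot exclude a pairing or a batch. Depth limits sparse members, and counts are given where they were few.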

Additional observations from a re-analysis of the deposited data

Results flagged for a closer look

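The response to sevoflurane differed between a class and all other nuclei for 12 member and class pairs, by a limma test of the difference itself with Benjamini-Hochberg adjustment. Values are the log2 response in the class minus that in the rest. For Arsg it was 1.07 in dentate granule-like nuclei, and this call held in all 9 alternative fits. For Arsg in oligodendrocyte-like nuclei it was −0.72, where the class had 143, 121 and 109.6 CPM in sevoflurane and 112, 129 and 143 CPM in oxygen and the rest had 16.5, 14.4 and 16.6 CPM in sevoflurane and 9.69, 8.59 and 11.4 CPM in oxygen.

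Hs3st3b1 in astrocyte-like nuclei stood at 2.22, also in all 9 alternative fits, with a level of 0.1604 to 0.391 CPM in sevoflurane and 0.297 to 0.571 CPM in oxygen in the rest. In subicular or cortical excitatory-like nuclei Hs6st2 stood at −0.55 and Hs3st2 at −0.66. Hs3st2 had 71.7, 91.8 and 85.3 CPM in sevoflurane and 88.8, 87.4 and 95.2 CPM in oxygen in that class, where the groups overlapped, and 21.4, 22.2 and 25.1 CPM in sevoflurane and 16.1, 15.5 and 17.5 CPM in oxygen in the rest, where they did not. In every comparison the rest included unnamed clusters 19 and 36, mostly from sevoflurane libraries. Cluster 36 had 99.6 ± 19.4 CPM of Hs3st2 and 137 ± 29.8 CPM of Hs6st2 (n = 3 sevoflurane libraries). The part of these clusters in the results was not tested.

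Chst9 stood at 2.11 in microglia-like nuclei (82 UMIs), 1.24 in oligodendrocyte precursor-like nuclei and 0.93 in astrocyte-like nuclei. The rest, of which dentate granule-like nuclei are part, was lower in sevoflurane in each case. In astrocyte-like nuclei the class itself had 25.1, 21.5 and 24.0 CPM in sevoflurane and 22.5, 27.3 and 20.4 CPM in oxygen. In CA1 pyramidal-like nuclei St8sia4 stood at 0.61 and St6gal2 at 0.45. St8sia4 had 17.3, 16.0 and 14.6 CPM there in sevoflurane and 9.98, 12.4 and 11.5 CPM in oxygen.

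In endothelial-like nuclei St8sia4 stood at −2.001 and St3gal1 at 1.08. St3gal1 had 177, 163 and 180.3 CPM there in sevoflurane and 115, 122 and 149 CPM in oxygen, and in the rest 13.9, 16.0 and 16.7 CPM in sevoflurane and 19.1, 25.0 and 24.7 CPM in oxygen, so that the order of the groups was opposite in the class and in the rest.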

How the results depend on the processing

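None of the 28 calls of a member, in a class or over all nuclei, reversed its sign under any alternative run, and 5 kept the call under all of them: Arsg and Chst9 in dentate granule-like, Ndst3 in inhibitory-like, and Chst11 and St6gal1 in CA3 pyramidal-like nuclei. DESeq2 gave no adjusted p for 5 of the 28, St6gal1 in CA3 pyramidal-like nuclei among them. Another 2, St8sia4 and St6gal1 in endothelial-like nuclei, kept it whichever library was left out. Over all nuclei the 3 called members became 10 with DESeq2, 6 without a filter on low counts, 5 under the stricter nuclei filter, 5 without choroid plexus epithelial-like nuclei and 1 with the replicate block, and 0 to 3 when 1 library was left out (0 without oxygen replicate 1, 2 or 3 or sevoflurane replicate 2). Within classes the 25 calls became 16 with a correction for gene span and 44 without a count filter, and 8 to 26 when 1 library was left out, with 9 without oxygen replicate 2, 8 without oxygen replicate 3 and 15 without sevoflurane replicate 2. The replicate block gave 17. The 12 calls of a class against the rest became 6 to 13 when 1 library was left out and 14 with the block, and stayed at 12 with prior counts of 0.5 and 5. Single calls were lost in 80 of the 168 fits that left out 1 library, in 11 of 28 under the span correction and in 12 of 28 under the block. Causes of these changes were not tested. Fits without unnamed clusters 19 and 36, or on 1 dentate granule-like cluster, were added after the data had been seen, and gave 3 members over all nuclei and 24 and 25 pairs in classes.

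The classes are not equally deep: endothelial-like sums held few nuclei, and the calls of Arsj and Hs3st3b1 in astrocyte-like and Hs3st1 in endothelial-like nuclei rest on 71, 92 and 124 molecules. Pairs of a member and a class share libraries and are not independent. Library labels of sex were contradicted for 3 libraries, and the study's sexes were not compared.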

Other observations

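The lower calls among genes that build or carry the chains lay in several classes and often on the same gene. Of the chondroitin chain enzymes, Csgalnact1, which starts the chondroitin chain, had 58.2, 53.6 and 54.0 CPM in sevoflurane and 81.3, 101 and 87.3 CPM in oxygen in subicular or cortical excitatory-like nuclei (−0.70 ± 0.09, edgeR adjusted p = 0.00953). It also had 68.7, 103 and 126 CPM in sevoflurane and 199, 165 and 257 CPM in oxygen in endothelial-like nuclei (−0.99 ± 0.21, edgeR adjusted p = 0.0159). Chsy3 in inhibitory-like nuclei had 232, 214 and 229 CPM in sevoflurane and 339.9, 319 and 319 CPM in oxygen (−0.54 ± 0.07, edgeR adjusted p = 0.00138). Xylt1 was lower in astrocyte-like (−0.76 ± 0.13), subicular or cortical excitatory-like (−0.63 ± 0.10) and CA1 pyramidal-like nuclei (−0.53 ± 0.08), and Ext1 in inhibitory-like (−0.57 ± 0.09), subicular or cortical excitatory-like (−0.57 ± 0.08) and dentate granule-like nuclei (−0.48 ± 0.08).

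Among protein cores, Cspg5 (neuroglycan C) in astrocyte-like nuclei had 318, 231 and 236 CPM in sevoflurane and 366, 539.8 and 447 CPM in oxygen (−0.80 ± 0.16, edgeR adjusted p = 0.0113). Spock1, a testican, in CA3 pyramidal-like nuclei had 888, 973 and 918 CPM in sevoflurane and 1228, 1314 and 1213 CPM in oxygen (−0.43 ± 0.07, edgeR adjusted p = 0.00627). Spock1 is also among the markers that named CA3 pyramidal-like nuclei. The part of cell make-up in its fall was not tested. The glypicans Gpc4 in dentate granule-like (−0.53 ± 0.09) and Gpc6 in inhibitory-like nuclei (−0.40 ± 0.08) were lower as well. Of the carriers of polysialic acid, Cadm1 was lower in dentate granule-like (−0.28 ± 0.06, edgeR adjusted p = 0.0286) and Nrp2 in subicular or cortical excitatory-like nuclei (−0.46 ± 0.08, edgeR adjusted p = 0.0286).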
